A study of Mus musculus with 23 samples.

Results

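The genes for the subunits of the AMPA receptor and for a set of its auxiliary proteins were followed across 3 hippocampal neuron populations of the mouse. The 10 genes were chosen by symbol: the subunits Gria1, Gria2, Gria3 and Gria4, the transmembrane AMPA receptor regulatory proteins Cacng2, Cacng3, Cacng5 and Cacng8, and the cornichon homologues Cnih2 and Cnih3. They are 10 of the 45706 gene IDs in the deposited count table. The rule names them by symbol and sets no threshold on a measured value, but it was written with earlier results of these data known. All 10 passed the filter on low counts, which kept 18823 genes. The lowest count of any member in any library was 194 reads, for Cacng5 in Grik cKO replicate 3.

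AMPA receptors are tetramers that open on binding glutamate and carry most of the fast excitatory current at central synapses. Which subunits are assembled sets conductance and calcium entry: receptors that hold an edited GluA2 subunit, the product of Gria2, pass little calcium, while receptors without it are calcium-permeable and are common in interneurons. Auxiliary proteins bind the assembled receptor and alter its export from the endoplasmic reticulum, its anchoring at the synapse and the speed at which it closes and desensitizes.

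The study compared polyadenylated RNA of mouse hippocampal neurons between genotypes of Slm2 (gene symbol Khdrbs3), which encodes a protein that binds RNA and steers alternative splicing. The populations are called CamK and Grik, both labelled as excitatory pyramidal cells, and SST, labelled as somatostatin-positive interneurons. The design text speaks of CA1 and CA3 excitatory cells without saying which name is which. Wild-type (WT) samples carry the label SLM2 WT and conditional knockout (cKO) samples the label SLM2 cKO. There were 4 CamK WT, 3 CamK cKO, 4 Grik WT, 4 Grik cKO, 4 SST WT and 4 SST cKO libraries, 23 in all. The driver alleles, strain, age, deleted exons and way of isolating the cells are not stated in any source at hand. Nothing in the labels says that the libraries of a group came from separate animals, so p-values measure the spread between these libraries, which may in part be technical.

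Reads counted in genes ranged from 87612006 to 112993538 per library. Of 4 CA1 markers, the summed level was 1006 to 1668 CPM (reads of a gene scaled to a common library total of 1e+06 after TMM normalisation) in CamK libraries and 50.5 to 95.7 CPM in Grik libraries. Of 4 CA3 markers, it was 104 to 235 CPM in CamK and 834 to 938 CPM in Grik libraries. The 3 somatostatin-cell markers summed to 1185 to 3161 CPM in SST libraries and to 9.70 to 17.2 CPM elsewhere. CA1 markers thus led in CamK and CA3 markers in Grik libraries, and SST libraries held 392 to 430.4 CPM of the CA1 and 83.8 to 115 CPM of the CA3 markers. Every gene of these lists was above 0 in each group, and the 3 excitatory markers Slc17a7, Camk2a and Neurod6 summed to 717 to 1017 CPM in SST libraries against 5207 to 7603 CPM in pyramidal ones. The 18 non-neuronal markers summed to 275 to 493 CPM in the CamK population. They summed to 1224 to 1573 CPM for Grik and to 346 to 1240 CPM for SST. Khdrbs3 itself was 278 ± 25.1 CPM (SD, n = 3) in CamK cKO against 373 ± 27.0 CPM in CamK WT (n = 4), with an adjusted p of 0.114 in edgeR. In SST it was 93.8 ± 10.5 CPM in cKO against 130.2 ± 8.31 CPM in WT (n = 4 each, adjusted p = 0.0309 in edgeR). That SST call was lost with only the populations compared in the fit. It was also lost without SST cKO replicate 3, 4 or 5 or SST WT replicate 1. The libraries labelled Grik cKO had more Khdrbs3 reads than Grik WT, 414 ± 18.0 against 336 ± 8.61 CPM (n = 4 each, adjusted p = 0.499 in edgeR), the opposite of the label. These groups did not overlap. The genotype difference in Khdrbs3 was itself called between CamK and Grik (adjusted p = 0.0154 in edgeR) and between Grik and SST (adjusted p = 0.00135 in edgeR). With a block on replicate number the call between CamK and Grik was lost, as it was without CamK cKO replicate 6 or Grik cKO replicate 2. Which exons were deleted is not stated, so a count over the whole gene may not see the deletion. The paralogs Khdrbs2 and Khdrbs1 were the 2 genes called between genotypes in CamK and again in Grik. Khdrbs2 was 2.87-fold higher in CamK cKO than in CamK WT (adjusted p = 3.02e-07 in edgeR) and 4.49-fold higher in Grik cKO than in Grik WT (adjusted p = 1.11e-10). Khdrbs1 was higher by 0.59 and 0.56 on the log2 scale (adjusted p = 0.0111 and 0.00914 in edgeR), in the same direction in both populations. In SST neither was called, with 1.49-fold for Khdrbs2 (adjusted p = 0.300 in edgeR) and 1.07-fold for Khdrbs1 (adjusted p = 0.874 in edgeR). Grik cKO stands for the libraries so labelled.

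The pore loops of the 4 subunits are shown because the subunit shares described here bear on one codon in them. In Gria2 transcripts the glutamine codon in capitals is edited to read as arginine by the enzyme that Adarb1 encodes, and this is what makes GluA2-containing receptors calcium-impermeable. Each stretch lies in 1 coding exon, is given 5′ to 3′ on the coding strand from the GENCODE M21 transcripts, and has its position on GRCm38 after it.
Gria1: ggggccttcatgCAGcaaggatgtgacatt (chr11:57243082-57243111, + strand)
Gria2: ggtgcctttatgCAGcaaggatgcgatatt (chr3:80706896-80706925, - strand)
Gria3: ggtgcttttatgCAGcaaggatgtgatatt (chrX:41610253-41610282, + strand)
Gria4: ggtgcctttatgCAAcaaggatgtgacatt (chr9:4464122-4464151, - strand)
The genome has CAG at that codon in Gria1, Gria2 and Gria3 and CAA in Gria4. Out of 30 bases, Gria3 differs from Gria2 at 2, Gria4 at 3 and Gria1 at 4. Counts per gene do not show whether a transcript was edited, so editing was not analysed here.

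RefSeq's promoter table for GRCm38.p6 held 9 windows for 8 of the 10 members, each reaching from 250 bases before a transcript start to 50 after it. The windows of Gria2 and Gria4 are printed because these subunits differed most, and in opposite directions, between pyramidal cells and SST cells. That of Cnih3 is printed because this gene differed most between CamK and Grik cells. Capitals mark matches on either strand to 4 motifs. The E-box searched was CAGCTG. The response element for cyclic AMP was TGACGTCA. For the box bound by Sp1-type factors the letters were GGGCGG. The TATA box was searched as TATAAA.
Gria2: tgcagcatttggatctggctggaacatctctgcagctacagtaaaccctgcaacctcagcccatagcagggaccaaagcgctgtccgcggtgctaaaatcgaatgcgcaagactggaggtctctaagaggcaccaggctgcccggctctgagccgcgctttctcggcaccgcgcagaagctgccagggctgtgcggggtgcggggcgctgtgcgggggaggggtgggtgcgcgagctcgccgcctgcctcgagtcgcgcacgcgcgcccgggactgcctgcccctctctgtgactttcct (chr3:80802786-80803085, - strand)
Gria4: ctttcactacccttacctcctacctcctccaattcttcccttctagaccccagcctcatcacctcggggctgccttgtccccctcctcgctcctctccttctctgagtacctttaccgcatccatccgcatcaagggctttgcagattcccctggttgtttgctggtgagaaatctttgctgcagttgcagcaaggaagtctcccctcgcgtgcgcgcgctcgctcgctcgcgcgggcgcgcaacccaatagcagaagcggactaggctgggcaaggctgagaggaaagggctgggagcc (chr9:4796185-4796484, - strand)
Cnih3: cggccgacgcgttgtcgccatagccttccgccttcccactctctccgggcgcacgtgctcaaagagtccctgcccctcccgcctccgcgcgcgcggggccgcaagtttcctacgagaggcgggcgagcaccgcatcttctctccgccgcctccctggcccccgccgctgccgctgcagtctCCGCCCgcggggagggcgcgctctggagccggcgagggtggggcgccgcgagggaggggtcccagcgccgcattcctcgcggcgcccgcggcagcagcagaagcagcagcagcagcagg (chr1:181352378-181352677, + strand)
Neither the Gria2 nor the Gria4 window held any of the 4 motifs. The Cnih3 window held 1 GGGCGG, which 35.9% of 32544 promoters of that length hold. CAGCTG stands in 16.4%, TGACGTCA in 1.80% and TATAAA in 13.6% of those promoters and in none of the 3 windows printed. GC content was 65.7% for Gria2, 59.7% for Gria4 and 75.3% for Cnih3, against a median of 53.0%. A match is a string of letters in this window and was not tested as a binding site.

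Among the core subunits of WT cells, Gria2 and Gria4 separated interneurons from pyramidal cells in opposite directions. Gria2 fell from about 400 CPM in both pyramidal populations to 160 in SST cells, and Gria4 rose from 16.9 to 26.6 CPM to 195. Gria1 and Gria3 were also higher in SST cells, by smaller factors. Between CamK and Grik cells only Gria4 passed the test among the 4 subunits.

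Gria2 (ENSMUSG00000033981, chr3:80681450-80802835, GRCm38) stood at 443, 406, 380.2 and 379 CPM in the 4 CamK WT libraries. It was 428, 410.1, 452 and 387 CPM in Grik WT and 139.8, 165, 155 and 180.4 CPM in SST WT. Every pyramidal library lay above every SST library, and the pyramidal groups overlapped. CamK exceeded SST 2.51-fold (log2 fold change 1.33, SE 0.10, adjusted p = 5.77e-11) and Grik exceeded SST 2.62-fold (1.39, SE 0.10, adjusted p = 2.41e-11; all such values are from edgeR's quasi-likelihood test, adjusted over 18823 genes). CamK against Grik gave -0.06 (SE 0.10, adjusted p = 0.677). With a score of the non-neuronal markers as a covariate that last value turned to 0.41 with an adjusted p of 0.0442. That score, a mean log2 CPM, ran from 0.108 to 1.70 in CamK libraries, from 2.07 to 3.03 in Grik and from 2.20 to 3.63 in SST libraries. It thus goes with population wherever CamK is compared with Grik or SST. In these bulk samples fewer cells of a type and less RNA per cell cannot be told apart.

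Gria4 (ENSMUSG00000025892, chr9:4417896-4796234) encodes a subunit with fast kinetics that is prominent in interneurons. Its SST WT libraries held 181, 225, 199 and 172 CPM. The CamK WT libraries held 26.7, 32.9, 20.5 and 26.3 CPM, and the Grik WT libraries 15.1, 17.1, 18.1 and 17.4 CPM. All 3 groups were apart, with SST highest and Grik lowest. SST exceeded CamK 7.31-fold (log2 fold change of CamK over SST -2.87, SE 0.12, adjusted p = 3.22e-16) and Grik 11.5-fold (-3.52, SE 0.12, adjusted p = 1.08e-17). These were the widest differences of any member in the comparisons with SST. CamK exceeded Grik 1.57-fold (0.65, SE 0.11, adjusted p = 4.05e-05). The inhibitory markers summed to 61.7, 134, 41.2 and 135 CPM in the CamK WT libraries, in the same order, and to 60.3 to 81.6 CPM in Grik WT. The part of interneuron reads in the CamK level of Gria4 was not tested.

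Gria1 (ENSMUSG00000020524, chr11:57011387-57330244), the subunit best known for its part in synaptic potentiation, had the most reads of all members in every group. It reached 1279, 1603, 1392 and 1171 CPM in SST WT, against 873, 781, 878 and 828 CPM in CamK WT and 706, 730.5, 823 and 726 CPM in Grik WT. No pyramidal library reached the lowest SST library. SST exceeded CamK 1.62-fold (adjusted p = 4.53e-07) and Grik 1.82-fold (adjusted p = 1.29e-08). CamK against Grik gave 0.17 (SE 0.09, adjusted p = 0.143).

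Gria3 (ENSMUSG00000001986, chrX:41400854-41678601) ranged from 155 to 183 CPM in SST WT, from 115 to 122 CPM in CamK WT and from 98.4 to 122 CPM in Grik WT. SST lay above both, 1.43-fold over CamK (adjusted p = 2.49e-05) and 1.48-fold over Grik (adjusted p = 7.43e-06). The CamK difference lost its call with the non-neuronal covariate (log2 fold change -0.29, adjusted p = 0.159), a score that does not overlap between CamK and SST libraries. CamK and Grik overlapped, with a log2 difference of 0.05 (SE 0.09, adjusted p = 0.688).

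The regulatory proteins of the Cacng family each had their own order across the populations. Cacng2, the stargazin gene, rose from CamK to Grik to SST cells. Cacng3 was at like levels in CamK and SST cells and lower in Grik cells. Cacng5 was lowest in Grik and highest in SST cells, and Cacng8 was the only one of the 4 that was higher in both pyramidal populations than in SST cells.

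Cacng2 (ENSMUSG00000019146, chr15:77991748-78120028) encodes the protein whose loss gives the stargazer mouse and which brings AMPA receptors to the cell surface. It was 41.8, 44.6, 40.0 and 46.3 CPM in CamK WT, 78.0, 75.3, 80.1 and 60.9 CPM in Grik WT, and 146, 146, 152 and 107 CPM in SST WT. No 2 of these groups overlapped. Grik exceeded CamK 1.70-fold (log2 fold change of CamK over Grik -0.77, SE 0.10, adjusted p = 1.48e-06). SST exceeded CamK 3.19-fold (adjusted p = 8.40e-13) and Grik 1.87-fold (adjusted p = 4.34e-08). Exons of Cacng2 overlap those of A730060N03Rik on the opposite strand, and as the strand setting of the counting is not given in the sources used here, reads of the pair cannot be told apart.

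Cacng3 (ENSMUSG00000066189), a close relative of stargazin, was 75.3, 91.4, 93.9 and 100.2 CPM in CamK WT. It was 33.0, 32.2, 37.5 and 33.5 CPM in Grik WT and 101.5, 99.4, 90.3 and 81.8 CPM in SST WT. Grik libraries were all far below the rest, while CamK and SST overlapped. CamK exceeded Grik 2.65-fold (log2 fold change 1.41, SE 0.09, adjusted p = 6.63e-12) and SST exceeded Grik 2.74-fold (adjusted p = 5.61e-13). CamK against SST gave -0.05 (SE 0.09, adjusted p = 0.653), an interval of -0.23 to 0.14 at 95% confidence.

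Cacng5 (ENSMUSG00000040373, chr11:107874605-107915055), a type II member of the family, was the least abundant gene here. It ranged from 2.81 to 3.90 CPM in Grik WT, from 5.34 to 10.2 CPM in CamK WT and from 18.9 to 26.0 CPM in SST WT. The 3 ranges did not touch. SST exceeded Grik 6.83-fold (log2 fold change of Grik over SST -2.77, SE 0.19, adjusted p = 5.62e-12) and CamK 2.99-fold (adjusted p = 4.83e-08), and CamK exceeded Grik 2.29-fold (adjusted p = 1.10e-05). In CamK WT replicates 2, 3, 4 and 5 Cacng5 was 5.84, 8.05, 5.34 and 10.2 CPM. The 3 inhibitory markers there summed to 61.7, 134, 41.2 and 135 CPM, and to 60.3 to 81.6 CPM in Grik WT. The part of interneuron reads in the CamK level was not tested.

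Cacng8 (ENSMUSG00000053395, chr7:3390683-3415648) encodes the family member known for its high level in the hippocampus. It spanned 67.7 to 92.6 CPM in CamK WT, 65.8 to 95.2 CPM in Grik WT and 50.3 to 69.6 CPM in SST WT, so the groups overlapped. CamK exceeded SST 1.28-fold (log2 fold change 0.36, SE 0.12, adjusted p = 0.0159) and Grik exceeded SST 1.31-fold (0.39, SE 0.12, adjusted p = 0.0100). The first of these calls was lost without CamK WT replicate 4 (adjusted p = 0.0766), SST WT replicate 3 (0.0513) or SST WT replicate 5 (0.0686) and with the non-neuronal covariate (0.530). The second was lost without Grik WT replicate 5 (adjusted p = 0.0544). The score behind the covariate does not overlap between CamK and SST libraries.

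The cornichon genes, whose products slow the closing of AMPA receptors and aid their export, differed in where they were high. Cnih2 (ENSMUSG00000024873, chr19:5092868-5098521) was higher in pyramidal cells, at 294, 275, 396 and 368 CPM in CamK WT and 233, 240.1, 304 and 337 CPM in Grik WT. SST WT had 206, 172, 166 and 156 CPM, below every pyramidal library. CamK exceeded SST 1.90-fold (log2 fold change 0.93, SE 0.13, adjusted p = 8.03e-07) and Grik exceeded SST 1.59-fold (0.67, SE 0.13, adjusted p = 6.81e-05). CamK against Grik gave 0.26 (SE 0.12, adjusted p = 0.0999) and passed only without CamK WT replicate 3 (0.34, adjusted p = 0.0369) or Grik WT replicate 6 (0.36, adjusted p = 0.0252). Cnih2 exons overlap Yif1a on the opposite strand, so its counts carry the same doubt on strand. On the same strand, exons of Gria2, Gria3, Gria4 and Cacng8 overlap Gm25749, Gm22413, Gm23811 and Gm23450 in turn. The effect of these overlaps on the counts was not tested.

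Cnih3 (ENSMUSG00000026514, chr1:181352628-181460641) gave the widest gap between the 2 pyramidal populations. Its CamK WT libraries held 86.9, 88.7, 82.3 and 83.6 CPM, its Grik WT libraries 23.7, 22.4, 23.7 and 24.3 CPM, and its SST WT libraries 49.0, 52.3, 42.5 and 45.9 CPM. The groups were fully apart with CamK at the top and Grik at the bottom. CamK exceeded Grik 3.63-fold (log2 fold change 1.86, SE 0.09, adjusted p = 4.33e-14) and SST 1.80-fold (0.85, SE 0.09, adjusted p = 7.43e-09), and SST exceeded Grik 2.02-fold (adjusted p = 3.61e-10).

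**Figure D1:**
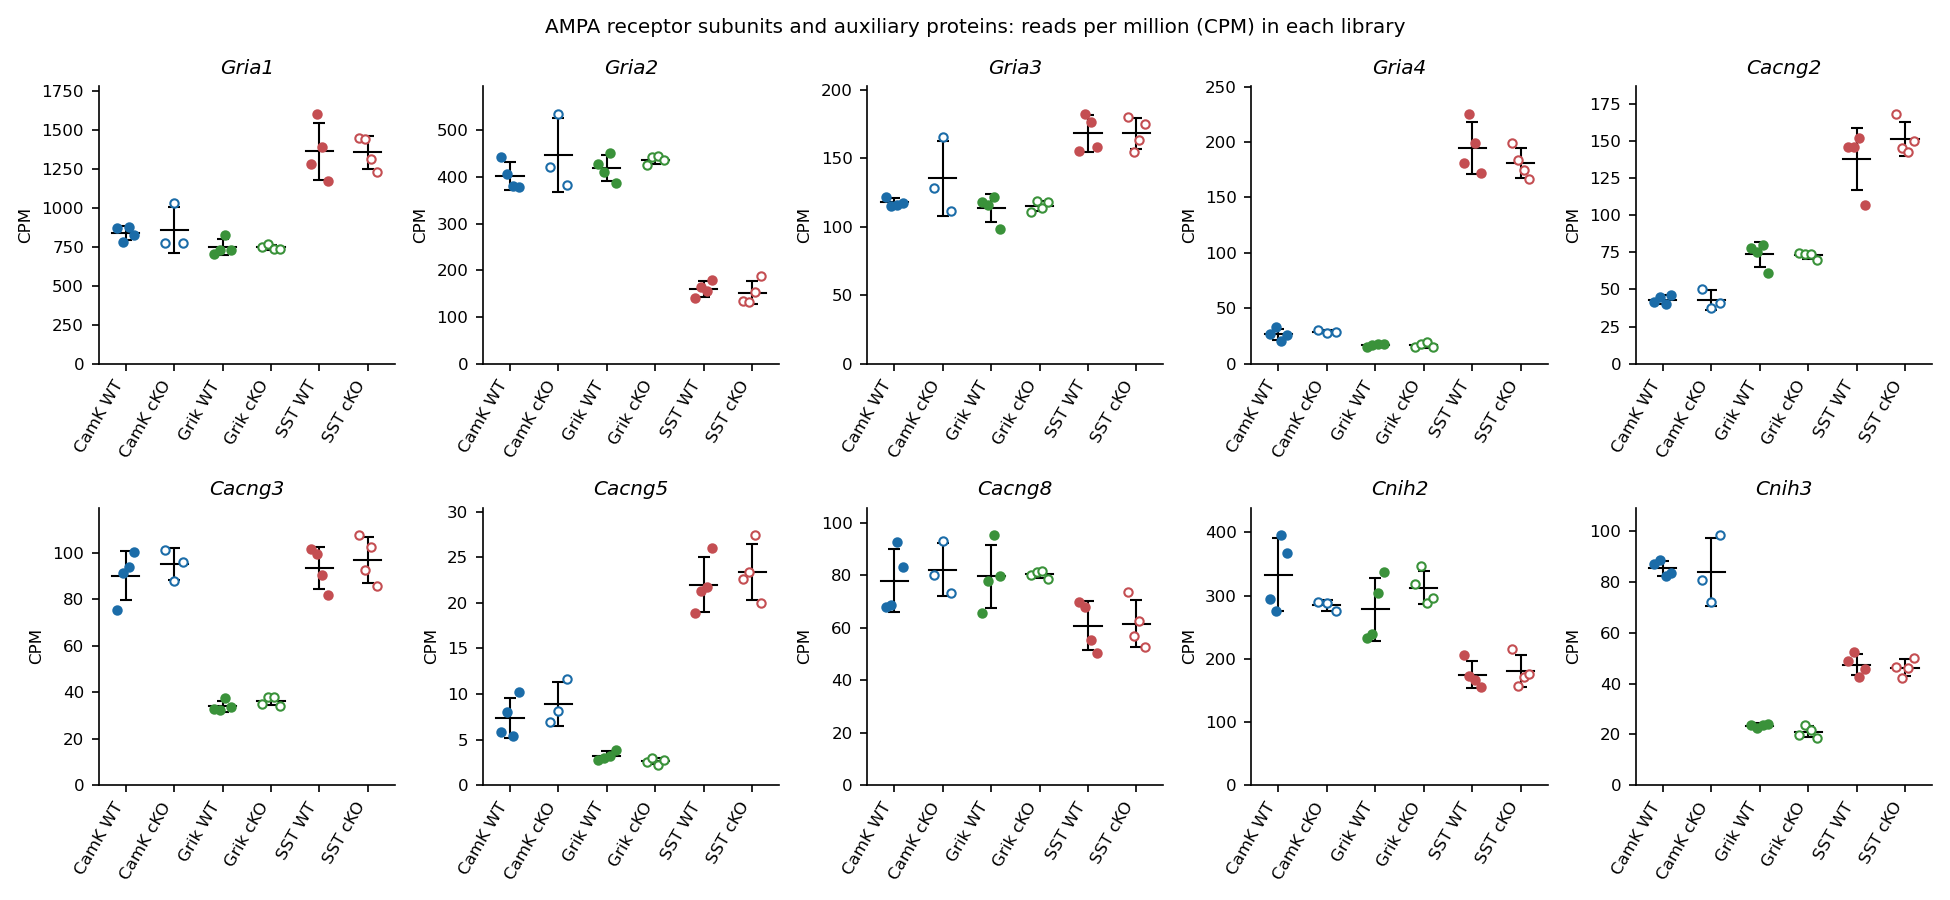
Normalised level in CPM (y axis, from 0 and on a scale of its own in each panel) of the 10 genes in each of the 23 libraries, by group. Filled points are WT and open points cKO libraries, the long line is the mean and the bars are 1 SD; Gria2 is low and Gria4 high in SST libraries of both genotypes, and open and filled points overlap in every population.

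Counted over the members, 4 of 10 were higher in CamK WT than in Grik WT (Gria4, Cacng3, Cacng5 and Cnih3) and 1 was lower (Cacng2), where 20.9% of all genes tested were called higher and 21.1% lower. Between CamK and SST, 4 were higher in CamK (Gria2, Cacng8, Cnih2 and Cnih3) and 5 lower, where 29.5% and 30.5% of all genes were called. Between Grik and SST, 3 were higher in Grik (Gria2, Cacng8 and Cnih2) and 7 lower, where 28.1% and 29.2% of all genes were called. The median absolute log2 difference over the members was 0.46, 0.89 and 0.96 in these 3 comparisons, beside 0.34, 0.54 and 0.51 over all genes. The comparisons share their WT libraries in pairs and are not independent of each other.

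**Figure D2:**
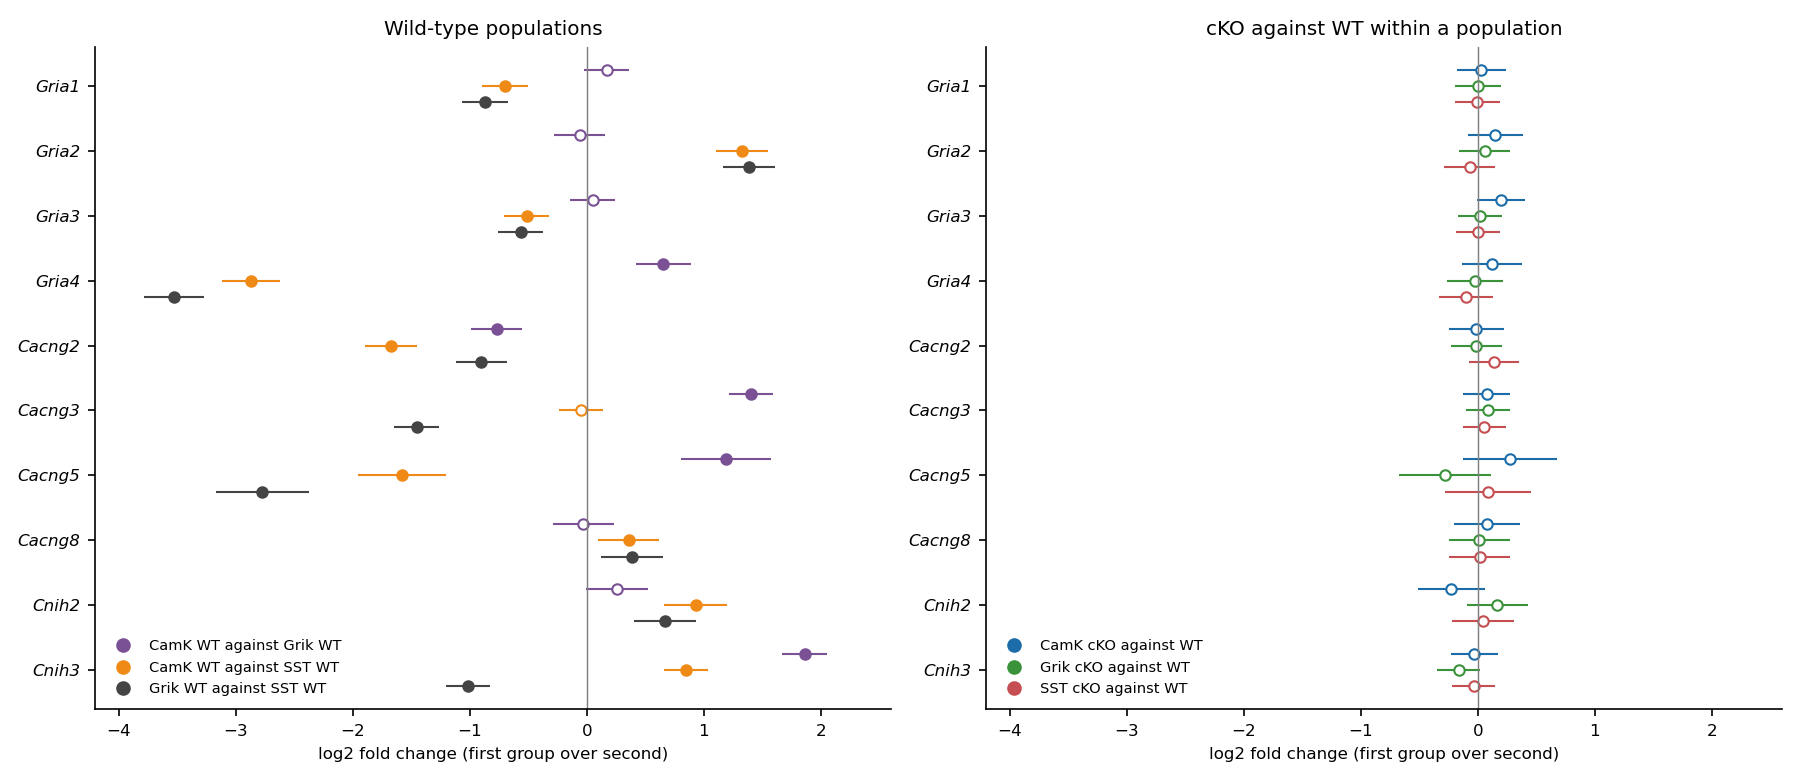
Log2 fold change (x axis, first group over second) of each of the 10 genes (y axis) between WT populations on the left and between cKO and WT on the right, on the same scale. Bars are 95% intervals and filled points passed an adjusted p of 0.05: 24 of the 30 points on the left are filled and 0 of the 30 on the right.

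The balance of subunits was expressed as the share of each Gria gene in the Gria total, with counts divided by the length of the union of its annotated exons. Gria1 made up most of the total in every group, with a WT share of 76.8 ± 1.53% for CamK, 75.0 ± 1.10% for Grik and 79.4 ± 1.06% for SST cells (SD, n = 4 each). Gria2 took 14.3 ± 0.954% in CamK WT and 16.4 ± 0.680% in Grik WT but 3.68 ± 0.665% in SST WT. Gria4 did the reverse, with 2.34 ± 0.523%, 1.63 ± 0.102% and 10.9 ± 0.0743%. Gria3 stayed between 5.61 and 7.57% in every WT library. In SST cells Gria4 thus took the place after Gria1 that Gria2 held in pyramidal cells. The size of the Gria2 share rests on the length used: as a plain share of reads its WT means were 29.0% (CamK), 32.3% (Grik) and 8.58% (SST), and with the longest coding transcript 17.8%, 20.2% and 4.74%. The mean Gria4 share in SST WT was 10.3% and 10.9%, above that of Gria2, although SST WT replicate 5 had 17912 reads for Gria2 and 17114 for Gria4.

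By library, the Gria2 share of CamK WT was 15.0, 15.2, 13.2 and 13.7%. That of Grik WT was 17.3, 16.3, 16.1 and 15.8%, and SST WT stood at 3.39, 3.21, 3.44 and 4.66%. The groups did not overlap in any of the 3 pairings. The Gria4 share of CamK WT was 2.24, 3.03, 1.76 and 2.35%. That of Grik WT was 1.51, 1.67, 1.59 and 1.75%, and SST WT stood at 10.8, 10.8, 10.9 and 11.0%, again with no overlap. SST WT replicate 5, with the highest Gria2 share of its group, also had the group's highest summed excitatory markers, 878 CPM against 745 to 869 CPM in the other 3; the part of such reads in the Gria2 share of SST libraries was not tested.

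Exact two-sided permutation tests over libraries gave p = 0.0286, the smallest that 4 against 4 libraries allow, for Gria2 and Gria4 in all 3 WT pairings and for Gria1 between Grik and SST. Adjusted over the 24 share tests this p became 0.0857, so none of the shares passed after correction. A test at that smallest p could pass only if many of the 24 reached it. The Gria2 share differed by 10.6 percentage points between CamK and SST (SE 0.581) and by 12.7 points between Grik and SST (SE 0.475). The Gria4 share was lower by 8.54 points in CamK (SE 0.264) and by 9.26 points in Grik than in SST (SE 0.0630). Between CamK and Grik, Gria2 was 2.09 points higher in Grik (SE 0.586) and Gria4 0.715 points higher in CamK (SE 0.267). For Gria3 the difference between pyramidal and SST cells turned sign with the treatment of length: CamK exceeded SST by 0.558 points per exon length and lay 0.458 points below it as a share of reads, with exact p of 0.0571 before adjustment for the first.

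**Figure D3:**
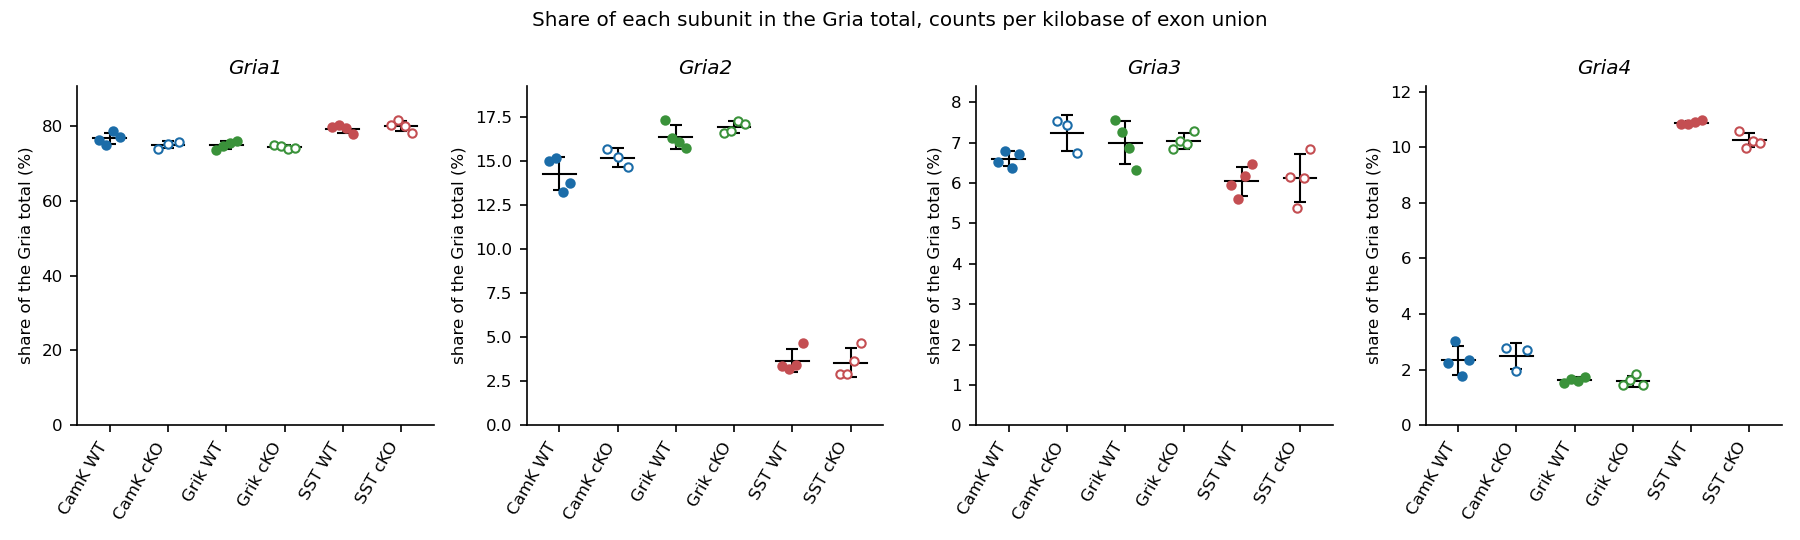
Share of each subunit in the Gria total in percent (y axis, from 0, a scale of its own in each panel), in counts per kilobase of exon union, for the 23 libraries by group. Filled points are WT and open points cKO libraries, with the mean and 1 SD; SST libraries of both genotypes lie between 2.92 and 4.66% for Gria2 and between 9.99 and 11.0% for Gria4, apart from all pyramidal libraries.

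Per length, the order of the 10 genes also differed between cell types. Cnih2 was first in CamK WT, at 243 ± 42.0 CPM per kilobase, and in Grik WT, at 203 ± 36.7, followed by Gria1 at 139 ± 7.49 and 124 ± 8.65. In SST WT the first place was taken by Gria1, at 225 ± 30.5 CPM per kilobase, ahead of Cnih2 at 128 ± 15.8. In each of these groups no library of the leading gene fell to the level of the next gene. The next 3 places in CamK WT went to Cacng8, Cacng3 and Cnih3, between 31.0 and 33.2 CPM per kilobase and overlapping. Gria2 followed at 25.9 ± 1.92, Gria3 at 11.9 ± 0.298, Cacng2 at 7.84 ± 0.510, Gria4 at 4.22 ± 0.803 and Cacng5 at 1.92 ± 0.583, each above the next within every library.

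In Grik WT, Cacng8 (33.9 ± 5.16 CPM per kilobase) and Gria2 (27.0 ± 1.76) came next. Cacng2, Cacng3 and Gria3 formed an overlapping run from 13.4 down to 11.5, and Cnih3, Gria4 and Cacng5 closed the order at 8.54, 2.68 and 0.841. In SST WT, Cacng3 followed at 33.6 ± 3.25 CPM per kilobase, above Gria4 at 30.9 ± 3.72 within every library, although the ranges of the 2 genes overlapped across libraries. Gria4, Cacng8 and Cacng2 overlapped in turn, from 30.9 to 25.0, and so did Cnih3 and Gria3 at 17.2 and 17.1. Gria2, at 10.3 ± 1.10, stood last but for Cacng5 at 5.74 ± 0.774. The order depends on the length used. For Gria2 the exon union is 15548 bases and the longest coding transcript 10371, and with the latter its level in CamK WT became 38.8 ± 2.89 CPM per kilobase, above Cacng3 and overlapping Cacng8. Gria3 moved from 11.5 to 21.9 CPM per kilobase in Grik WT, then above Cacng2 within every library, and from 17.1 to 32.4 in SST WT. Gria4 became 35.8 in SST WT, with its mean above that of Cacng3.

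Within the sum of these 4 Cacng genes, Cacng8 and Cacng3 shared most of the total in CamK WT, with 44.0 ± 3.25% and 43.0 ± 1.97%. In Grik WT, Cacng8 alone made up 56.0 ± 3.43%, and Cacng2 and Cacng3 22.2 ± 2.93% and 20.4 ± 1.05%. In SST WT the sum was spread more evenly, over Cacng3 with 37.3 ± 0.800%, Cacng8 with 28.7 ± 1.86%, Cacng2 with 27.6 ± 2.40% and Cacng5 with 6.49 ± 1.64%. Cnih3 was 11.5 ± 2.11% of the cornichon pair in CamK WT and 11.9 ± 1.20% in SST WT but 4.11 ± 0.622% in Grik WT. As plain shares of reads, Cacng2 came first in SST WT, with 43.7% against 29.8% for Cacng3 and 19.4% for Cacng8, and made up 38.7% in Grik WT and 19.9% in CamK WT. Plain read shares of Cnih3 in the cornichon pair were 20.7% (CamK), 21.4% (SST) and 7.92% (Grik). Cacng4 and Cacng7 are not in the sum. Cacng7 stood at 37.6 ± 3.37 CPM per kilobase in SST WT, above the mean of each of the 4, at 15.0 ± 1.57 in CamK WT and at 9.64 ± 0.607 in Grik WT. No test was made on these shares.

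**Figure D4:**
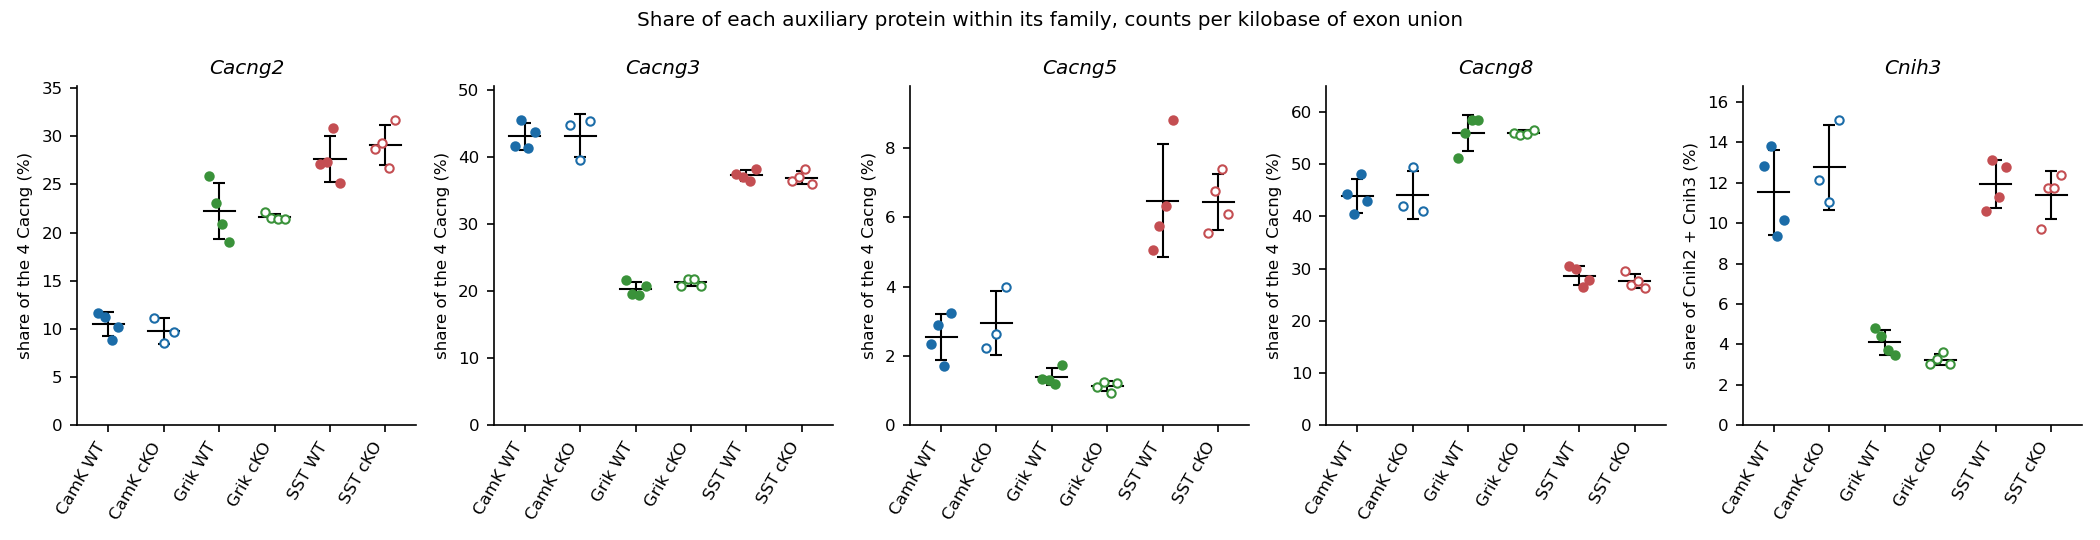
Share of Cacng2, Cacng3, Cacng5 and Cacng8 in the sum of those 4, and of Cnih3 in the sum of Cnih2 and Cnih3, in percent (y axis, from 0, a scale of its own in each panel), in counts per kilobase of exon union, by library and group. Filled points are WT and open points cKO libraries, with the mean and 1 SD; Grik libraries of both genotypes hold the lowest Cacng3 shares, 19.4 to 21.9%, and the lowest Cnih3 shares, 3.01 to 4.81%.

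None of the 10 genes passed the test between cKO and WT in any population. For the subunits, Gria1 was 857.6 ± 148, 747 ± 16.2 and 1357 ± 106 CPM in CamK, Grik and SST cKO against 839.8 ± 45.3, 747 ± 52.2 and 1361 ± 185 CPM in WT. Gria2 was 447 ± 79.2, 437 ± 9.23 and 152 ± 25.6 CPM in cKO against 402 ± 29.9, 419 ± 27.4 and 160.0 ± 17.1 CPM in WT. The 2 genotypes overlapped for every member in every population, where 6.75% of all genes did not overlap in CamK, 4.59% in Grik and 2.7% in SST. In each population 0 of 10 members passed the edgeR test, as did 0.0106% of all genes. At an unadjusted p under 0.05 there was 1 member in CamK (Gria3) and 0 in Grik and in SST, where 7.05%, 4.88% and 5.85% of all genes had such a p. DESeq2 and limma-voom likewise called 0 of 10 in each.

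The spread of Gria1, Gria2 and Gria3 in CamK cKO came from replicate 5. Gria1 was 772, 1029 and 772 CPM in CamK cKO replicates 4, 5 and 6, Gria2 was 421, 535 and 383 CPM, and Gria3 was 128, 166 and 112 CPM. Replicate 5 was the highest of the 3 for each of these subunits and above every CamK WT library. Gria3 had a log2 difference of 0.20 (SE 0.10, unadjusted p = 0.0492, adjusted p = 0.706 in edgeR). Without replicate 5 that difference was 0.0289, the one of Gria2 went from 0.15 to 0.000911 and the one of Gria1 from 0.03 to -0.12. Replicate 5 also differed from the other 2 cKO libraries in the markers of hippocampal fields. Its CA1 markers summed to 1668 CPM against 1006 and 1181 CPM in the other 2 CamK cKO libraries. Its CA3 markers summed to 104 against 200.2 and 235 CPM, and its dentate markers to 105 against 202 and 257 CPM. CamK WT libraries spanned 1118 to 1531, 159 to 189 and 97.9 to 259 CPM for the 3 lists, with replicate 4 at 1531 and 97.9 CPM for CA1 and dentate. The part of these differences in the subunit values was not tested. The non-neuronal markers, which summed to 452 to 493 CPM in CamK cKO and 275 to 421 CPM in CamK WT, did not overlap between these genotypes. The score used as a covariate is their mean log2 CPM and did overlap, at 0.984 to 1.70 in CamK cKO and 0.108 to 1.14 in CamK WT. With that score as a covariate 0 of 10 members were called.

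By their median absolute values, the fitted cKO changes of the members were smaller than the differences between WT populations. This did not hold for every gene and pairing. Gria2 and Gria3 had 0.15 and 0.20 in CamK cKO, but -0.06 and 0.05 for CamK against Grik WT. In CamK the fitted cKO changes ran from -0.23 (Cnih2) to 0.28 (Cacng5) on the log2 scale. The range was -0.28 (Cacng5) to 0.17 (Cnih2) for Grik, and -0.10 (Gria4) to 0.14 (Cacng2) for SST. The median absolute change over the members was 0.10, 0.04 and 0.05, beside 0.13, 0.11 and 0.12 over all genes. For Gria2 the 95% interval (CamK, Grik, SST in turn) was -0.08 to 0.39, -0.16 to 0.28 and -0.29 to 0.15. For Gria4 it was -0.13 to 0.37, -0.26 to 0.21 and -0.33 to 0.13. The widest interval belonged to Cacng5, from -0.68 to 0.11 in Grik and from -0.13 to 0.68 in CamK. These intervals give the changes that the fit did not exclude.

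The difference of the cKO effect between populations was tested for each member, and 0 of 10 passed in each pair, where 0.00531% of all genes were called for CamK against Grik, 0% for CamK against SST and 0.0106% for Grik against SST. At an unadjusted p under 0.05, the share of all genes passing in the 3 pairs was 6.50%, 7.85% and 3.86%. There were 2 members in the first pair and 0 in the others: Cacng5 with 0.56 (SE 0.27, adjusted p = 0.759 in edgeR) and Cnih2 with -0.39 (SE 0.18, adjusted p = 0.759 in edgeR). Cnih2 was 285 ± 8.55 CPM in CamK cKO against 333 ± 57.5 in WT, and 313 ± 26.5 CPM in Grik cKO against 278 ± 50.3 in WT.

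No subunit share passed between genotypes after adjustment over the 24 tests, but these tests had little room to pass. In CamK, with 3 against 4 libraries, the smallest possible exact p is 0.0571, so no share could pass there. In Grik and SST it is 0.0286, which passes the adjustment only if many of the 24 tests reach it. The absence of a call is thus no evidence that shares were equal. The widest difference was that of Gria1 in CamK, with 75.1% in cKO and 76.8% in WT (-1.67 points, SE 0.961, exact permutation p = 0.229). In CamK, Gria2 was 15.2 ± 0.529% in cKO and 14.3 ± 0.954% in WT (exact permutation p = 0.229, n = 3 and 4). In Grik it was 16.9 ± 0.343% and 16.4 ± 0.680% (exact p = 0.200, n = 4 each), and in SST 3.54 ± 0.825% and 3.68 ± 0.665% (exact p = 0.629, n = 4 each). One share did not overlap between genotypes. The Gria4 share in SST was 10.6, 9.99, 10.2 and 10.2% in cKO against 10.8, 10.8, 10.9 and 11.0% in WT, 0.642 points lower in cKO (SE 0.131, exact p = 0.0286, n = 4 each; 0.0857 adjusted over the 24 tests). That WT group was very tight, with an SD of 0.0743 points. The Gria4 level itself, 181 ± 13.9 CPM in cKO and 195 ± 23.5 CPM in WT, overlapped between the genotypes (log2 fold change -0.10, SE 0.11, adjusted p = 0.901 in edgeR). Among the other 11 share tests between genotypes the lowest exact p was 0.114, for Gria3 in CamK, with 7.24% in cKO and 6.61% in WT.

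Of the other genes of AMPA receptor biology, a list of 31 was followed: genes for export and biogenesis, other auxiliary proteins, extracellular partners, scaffolds and trafficking, and the editing enzyme. All 31 passed the filter. In CamK against Grik 13 were called higher and 14 lower, in CamK against SST 18 higher and 10 lower, and in Grik against SST 16 higher and 12 lower, beside the shares of all genes given above. Their median absolute log2 difference was 0.63, 1.07 and 1.13. None of the 31 passed between cKO and WT in any population, with an unadjusted p under 0.05 for 2, 1 and 3 of them beside the 7.05%, 4.88% and 5.85% of all genes, and none in the differences between populations.

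All 7 extracellular genes, whose products cluster or hold receptors at the synapse, were called in either direction in each WT pairing. Of all 18823 genes, 7912 were called in either direction for CamK against Grik, 11305 for CamK against SST and 10794 for Grik against SST. Nptx1, a neuronal pentraxin, was at 1123 CPM in Grik, 418 in CamK and 69.7 in SST cells, and Nptxr, the pentraxin receptor, at 1589.6, 575 and 156 CPM. Grik exceeded CamK 2.68-fold for Nptx1 (adjusted p = 9.04e-08) and 2.77-fold for Nptxr (adjusted p = 1.90e-10). Nrn1 and Nptx2, both known to be induced by activity, were low in SST cells: Nrn1 was 14.3-fold higher in CamK (adjusted p = 2.31e-12) and 23.4-fold higher in Grik (adjusted p = 2.13e-13), and Nptx2 was 5.53-fold higher in CamK (adjusted p = 9.96e-12). Of the 3 olfactomedins, Olfm1 had the order of Nptx1 and Nptxr, at 1429 CPM in Grik, 987 in CamK and 344 in SST cells, while Olfm2 and Olfm3 had the other order. Olfm3 was at 105 CPM in SST, 14.5 in CamK and 1.74 in Grik cells, so CamK exceeded Grik 8.34-fold (adjusted p = 2.25e-13) and SST exceeded Grik 60.4-fold (adjusted p = 1.52e-18). Olfm2 was at 103, 38.1 and 7.42 CPM in the same order of cells.

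Of 10 further auxiliary proteins, 8 were called in either direction in each WT pairing. Over all 18823 genes the like counts were again 7912 (CamK against Grik), 11305 (CamK against SST) and 10794 (Grik against SST). Gsg1l, a relative of the claudins that binds AMPA receptors, was 7.16-fold higher in CamK than in Grik (31.4 against 4.39 CPM, adjusted p = 2.66e-09). Cacng4, another regulatory protein of the Cacng family, was at 60.6 CPM in SST against 2.06 in CamK, 29.4-fold higher (adjusted p = 1.14e-12), and at 4.85 CPM in Grik cells. Prrt2 had 0.0552 to 0.0805 CPM in the 3 WT groups and was not called in any pairing. Overlaps with other genes were looked up for the 10 members only, so this count near 0 is not evidence that Prrt2 is absent. Whether its reads were lost in counting was not tested. Of the 8 scaffold and trafficking genes, Grip2, which binds the tails of GluA2 and GluA3, was at 109 CPM in SST against 6.69 in CamK and 2.42 in Grik, or 16.2-fold and 44.8-fold higher in SST (adjusted p = 1.50e-17 and 3.02e-19). All 5 export and biogenesis genes were lower in CamK than in Grik, where 21.1% of all genes were. Of the 5, 4 were higher in CamK than in SST and 4 in Grik than in SST, where 29.5% and 28.1% of all genes were. Adarb1, named after its values were seen because its product edits Gria2, was at 180.3 CPM in CamK, 310.2 in Grik and 338 in SST, 1.72-fold higher in Grik than in CamK (adjusted p = 2.49e-07), with -0.12 for Grik against SST (adjusted p = 0.271).

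The genes whose levels followed each member most closely were found by Pearson's r of log2 CPM over the 23 libraries, among 9110 genes with a symbol and a mean of at least 10 CPM. The libraries form 6 groups and share the differences between 3 populations, so these values describe likeness of pattern and carry no p. Gria2 was most like Slc39a10 (r = 0.992) and Dpy19l3 (0.990), and Gria4 most like Frmd5 (0.995) and Arl4c (0.994). Gria1 was closest to Iqsec1 (0.974) and Fstl1 (0.973), and Gria3 to Cacna2d3 (0.942) and Scg2 (0.937). For the Cacng genes the nearest were Rgs8 and Kcnc1 for Cacng2 (0.988 and 0.986), Stard10 and Grm4 for Cacng3 (0.989 and 0.987), Cacna2d2 and Dpp10 for Cacng5 (0.988 and 0.985), and St8sia5 and Scap for Cacng8 (0.918 and 0.917). For the cornichons they were Mlf2 and Tmem250-ps for Cnih2 (0.975 and 0.969) and Pak6 and Sertm1 for Cnih3 (0.981 and 0.977). Among the members themselves, Gria2 and Gria4 ran most strongly against each other (r = -0.960), Gria1 and Gria4 most closely together (0.956), and Cacng3 and Cnih3 had an r of 0.866.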

How the data were processed

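Polyadenylated RNA of 23 libraries was sequenced, and the authors deposited 1 table of raw read counts per gene, in whole numbers. Per the submitters' processing notes, Trimmomatic, STAR and the GRCm38 build were used. Versions, annotation and strand setting were not given there. Summary rows that name no gene held 12.4 to 18.4% of each library's reads and stayed out of library sizes and tests. Gene IDs were matched to GENCODE M21, which named 45143 of 45706.

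Counts were tested with edgeR 4.0.16 (TMM scaling, filterByExpr, robust quasi-likelihood fit over 6 groups, 17 residual degrees of freedom) in R 4.3.3, with Benjamini-Hochberg adjustment over 18823 genes and a threshold of 0.05. An SE is the log2 fold change over the square root of its F statistic. Subunit shares used counts per kilobase of exon union and exact two-sided permutation tests. Alternatives were DESeq2 1.42.0, limma-voom (limma 3.58.1), relative log expression scaling, 2 other filters, fewer populations per fit, a replicate block, a non-neuronal covariate, other lengths and leaving out each library. The fitting script was checked on simulated data.

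Replicates of a group differed by more than sampling noise, with a chi-square per degree of freedom of 8.27 to 198. The 10 genes, the gene lists and the tests were chosen with earlier results of these data known. Pathway genes named are the 3 highest and 3 lowest log2 fold changes in each WT comparison among those called with a mean of at least 1 CPM. Olfm1, Cacng7, Prrt2 and Adarb1 were named after their values were seen. For likeness, the 2 highest correlations per gene are named. One gene called between genotypes in SST is not reported here.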

Additional observations from a re-analysis of the deposited data

Results flagged for a closer look

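Within-group outliers were sought in 70 sets of 4 libraries, and 3 had a lowest or highest library whose gap to its neighbour exceeded Dixon's 95% critical value. By chance about 1 in 20 such sets does so. Cacng2 stood at 69.8 CPM in Grik cKO replicate 4, below 73.6 to 74.3 CPM in the other 3 libraries. It stood at 107 CPM in SST WT replicate 5, below 146 to 152 CPM in the rest. The same library held the third case, a Gria2 share of the Gria total of 4.66% against 3.21 to 3.44% in the other 3 SST WT libraries. The Gria2 share of SST cKO replicate 7 was 4.66% as well, and that library had the highest summed excitatory markers of its group, 1017 CPM against 717 to 927 CPM; the part of such reads was not tested.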

How the results depend on the processing

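All values here are log2 fold changes, counts of genes called or share differences in percentage points, and the cause of a move was not tested. In every alternative run 0 of the 10 members were called between cKO and WT, with adjusted p from 0.277 upward. With the non-neuronal score as a covariate the genes called fell from 7912 to 3876 for CamK against Grik and from 11305 to 7456 for CamK against SST, and Gria2 for CamK against Grik turned to 0.41. Between cKO and WT the 2 genes called in each population became 16, 14 and 11 (CamK, Grik, SST) with DESeq2, and 1, 5 and 0 with only the populations compared. For SST cKO the count was 1 without a filter on low counts, 1 with limma-voom and 1 with the covariate. Differences of the cKO effect between populations, at 1 gene for CamK against Grik, 0 for CamK against SST and 2 for Grik against SST, became 11, 14 and 4 with DESeq2, and the covariate gave 1 for CamK against SST. Leaving out 1 library at a time gave 1 to 4 genes for CamK cKO, 1 to 9 for Grik cKO, 0 to 2 for SST cKO, 0 to 2 for the difference of CamK and Grik and 0 to 1 for that of CamK and SST.

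Whether the numbers in the titles pair the samples is not stated. Correlations of same-numbered deviations ran from -0.0999 to 0.129, and some libraries, but not all, matched their own number best. These are deviations from means of 3 or 4 libraries, so the check cannot decide whether the numbers pair the samples. The replicate block gave 7862, 11148 and 10065 genes for the WT comparisons, 4, 2 and 2 for CamK, Grik and SST cKO, and 0 for the difference of CamK and Grik. SST cKO replicate 7 has no partner of its number and adds nothing to that fit. With the block, Gria3 turned to -0.0485 for CamK against Grik and -0.0517 in Grik cKO, Cacng2 to 0.12 in CamK cKO, Gria1 to -0.0593 in Grik cKO and 0.0862 in SST cKO, Cacng5 to 0.00706 and Cacng8 to -0.0273 in Grik cKO, and Gria3 to -0.000393 in SST cKO. Members called did not change in number with the block.

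Uncalled cKO values near 0 changed sign in other settings. Gria1 in Grik cKO was -0.0041 with relative log expression scaling and with DESeq2, -0.00106 without a filter, -0.00298 with only the populations compared and -0.00102 with the covariate. Gria3 in SST cKO was -0.000926, -0.000915, -0.00182, -0.0161 and -0.0285 in the same settings, and -0.0119 with at least 1 CPM in 3 libraries. Gria1 in SST cKO was 0.00211 with limma-voom, Cacng2 with the covariate 0.0295 in CamK and 0.000113 in Grik cKO, and Cacng8 in SST cKO -0.00264 with only the populations compared.

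Leaving out 1 library at a time, the WT values that changed sign were Gria3 (-0.0141 to 0.0860) and Cacng8 (-0.123 to 0.0684) for CamK against Grik and Cacng3 (-0.106 to 0.0325) for CamK against SST. Cacng8 kept its sign at 0.27 to 0.43 for CamK and 0.29 to 0.48 for Grik against SST, and Cnih2 at 0.17 to 0.36 for CamK against Grik. In CamK cKO they were Gria1 (-0.12 to 0.10), Cacng2 (-0.139 to 0.0774), Cacng8 (-0.0210 to 0.178) and Cnih3 (-0.159 to 0.0689). In Grik cKO they were Gria1 (-0.0249 to 0.0474), Gria3 (-0.0503 to 0.0503), Gria4 (-0.110 to 0.0192), Cacng2 (-0.0996 to 0.0256) and Cacng8 (-0.0668 to 0.109). In SST cKO they were Gria1 (-0.0702 to 0.0649), Gria3 (-0.0340 to 0.0405), Cacng3 (-0.00168 to 0.11), Cacng8 (-0.0826 to 0.0866), Cnih2 (-0.0535 to 0.132) and Cnih3 (-0.0837 to 0.00699).

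Without length correction the Gria3 share difference was -0.0140 in Grik cKO, -0.458 for CamK and -0.190 for Grik against SST. Leaving out 1 library, the share differences that changed sign were Gria4 in CamK cKO (-0.0572 to 0.402), Gria3 (-0.194 to 0.220) and Gria4 (-0.130 to 0.00507) in Grik cKO, and Gria2 (-0.512 to 0.191) and Gria3 (-0.167 to 0.318) in SST cKO. The common biological coefficient of variation was 16.3%, and whether depth or the number of libraries limits the precision was not tested.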
